A study of Mus musculus with 8 samples.

Results

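The genes described here are 7 genes of the endothelium, the cell layer that lines blood vessels: Emcn, Plvap, Eng, Pecam1, Klhl6, Kdr and Tie1. Expression was read with Illumina BeadChips in E14TG2a cells, a line of mouse embryonic stem (ES) cells, and in cultures differentiated from it. The genes were chosen by gene symbol with the array levels in view, as endothelial genes raised in the cultures that received FGF2. That label held for 4 of the 7. Emcn, Klhl6, Plvap and Eng were clearly higher with FGF2 than in the other differentiated cultures, Pecam1 was not, and the probes of Kdr and Tie1 gave no signal above background in those cultures. The 7 genes had 10 of the 25697 probes and were 7 of 16593 named genes. A probe was counted as detected on an array when its detection p was under 0.05. Of the 7 genes, 5 passed the filter of detection on at least 2 arrays, which left 9915 genes in all.

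The study asked how lung epithelium can be obtained from ES cells. Its 8 arrays formed 4 groups of 2, all of the same cell line. Undifferentiated ES cells, kept in medium with serum and LIF, were the control (ES). A second group received IDE2, a small molecule used to induce definitive endoderm, at 1 uM throughout the 11 days of differentiation (IDE2). The other groups had 1 uM IDE2 for 6 days, followed for 5 days by FGF2 at 500 ng/ml (IDE2+FGF2) or by FGF10 at 25 ng/ml (IDE2+FGF10). The differentiation medium, with N2, B27 and 1% serum, was common to these 3 groups, and the FGF doses differed. IDE2 was replaced, not supplemented, in both FGF groups, and no group was kept as long without IDE2. The labels do not say whether the 2 arrays of a group came from separate cultures, so errors and p-values cover only the spread between these arrays, which may be technical. Each array detected 45.2 to 52.2% of probes. Replicates correlated less across genes in IDE2 (r = 0.958) and IDE2+FGF2 (0.964) than in ES and IDE2+FGF10 (0.99 each).

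Endothelial cells arise from mesoderm that carries Kdr, the main receptor for vascular endothelial growth factor (VEGF), and transcription factors such as Etv2, Tal1 and Lmo2 act early in this lineage. FGF2 is known to promote the growth of endothelial cells and the formation of blood vessels. Of the 7 genes, Kdr and Tie1 encode receptor tyrosine kinases and Eng encodes endoglin, a co-receptor for ligands of the TGF-beta family. Emcn, Plvap and Pecam1 encode surface proteins: endomucin is a sialomucin of the endothelial surface, PLVAP forms the diaphragms of fenestrae and caveolae, and PECAM-1 (CD31) is an adhesion molecule of endothelial junctions that is also found on blood cells and on mouse ES cells. Klhl6 encodes a BTB-kelch protein best known from B cells.

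Promoter sequence was taken from RefSeq (GRCm38.p6), which had an entry for 5 of the 7 genes. The 250 bases before the start site are shown for Emcn, which was detected in the IDE2+FGF2 cultures alone, and for Tie1 and Kdr, which gave no signal above background in any differentiated culture. Capitals mark matches, on either strand, to the letters of 3 motifs. The ETS motif was AGGAAG. The letters searched for GATA factors were AGATAA. For SOX factors they were AACAAT. The windows are chr3:137340828-137341077 on the plus strand, chr4:118489850-118490099 on the minus strand and chr5:75978456-75978705 on the minus strand.
Emcn: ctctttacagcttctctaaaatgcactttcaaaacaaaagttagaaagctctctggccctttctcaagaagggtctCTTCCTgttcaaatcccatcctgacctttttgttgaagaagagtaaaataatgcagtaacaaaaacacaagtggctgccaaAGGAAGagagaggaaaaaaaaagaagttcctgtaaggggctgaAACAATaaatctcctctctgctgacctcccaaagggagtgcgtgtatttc
Tie1: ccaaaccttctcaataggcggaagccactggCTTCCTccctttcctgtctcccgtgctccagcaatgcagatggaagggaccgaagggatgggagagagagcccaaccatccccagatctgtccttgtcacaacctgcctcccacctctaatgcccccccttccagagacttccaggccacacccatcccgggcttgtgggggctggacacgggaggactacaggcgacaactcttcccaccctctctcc
Kdr: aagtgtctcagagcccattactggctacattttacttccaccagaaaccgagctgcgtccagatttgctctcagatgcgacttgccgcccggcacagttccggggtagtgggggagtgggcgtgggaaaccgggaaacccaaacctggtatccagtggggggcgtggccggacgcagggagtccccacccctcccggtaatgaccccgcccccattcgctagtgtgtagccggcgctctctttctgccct
The Emcn window held 2 ETS matches, starting 174 and 93 bases before the start site, and 1 SOX match at 50 bases. The Tie1 window held 1 ETS match at 219 bases, and the Kdr window held none of the 3 motifs. The ETS letters occurred in 4 of the 5 members' windows (also in Eng and Klhl6) and in 29.5% of all 32851 promoter windows of this length. The GATA and SOX letters occurred in 1 of the 5 windows each, and in 9.99% and 9.42% of all windows. A match describes these letters only.

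Among the surface proteins, Emcn was detected in the FGF2 cultures alone. Its raw signal was 656 and 931 on the 2 IDE2+FGF2 arrays and lay between 93.9 and 153 on the other 6, where it was not detected. As normalized log2 levels these were 9.13 and 9.19 in IDE2+FGF2, 4.75 and 5.02 in ES, 4.69 and 4.54 in IDE2, and 4.68 and 4.62 in IDE2+FGF10. The IDE2+FGF2 arrays lay far above all others, and the other 3 groups lay at background, where levels have no order. Taken against the background level of the lower group, Emcn was at least 13.3-fold higher in IDE2+FGF2 than in IDE2 and at least 10.6-fold higher than in IDE2+FGF10. No test is given for this or for any other IDE2+FGF2 difference of the 7 genes, because the genes were chosen on it. In cultures of mixed cells, more cells of a type and more transcript per cell cannot be told apart.

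Plvap had a different profile, since it was also well detected in ES cells. Its log2 levels were 8.51 and 8.20 in ES, 6.07 and 5.21 in IDE2, 9.39 and 9.18 in IDE2+FGF2, and 7.33 and 7.10 in IDE2+FGF10. The order was IDE2+FGF2, ES, IDE2+FGF10 and IDE2, with no overlap between neighbouring groups. The level in IDE2+FGF2 was 12.5-fold that in IDE2 (log2 difference 3.65 ± 0.33, SE of the fit, n = 2 arrays per group), a value that rests partly on background because IDE2 was detected on 1 of 2 arrays. It was 4.21-fold that in IDE2+FGF10 and 1.91-fold that in ES. Plvap was the member with a clear intermediate level in the FGF10 cultures.

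Eng was high in ES cells and in the FGF2 cultures and below background elsewhere. Its log2 levels were 8.45 and 8.63 in ES, 7.34 and 8.28 in IDE2+FGF2, 5.18 and 4.91 in IDE2, and 5.55 and 4.98 in IDE2+FGF10. The IDE2+FGF2 arrays differed 1.91-fold from each other, both lay below the ES arrays, and both lay above the other 4 arrays. Eng was at least 5.23-fold higher in IDE2+FGF2 than in IDE2 and at least 4.15-fold higher than in IDE2+FGF10, while its log2 difference from ES was -0.73 ± 0.36 (SE, n = 2 per group).

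Pecam1 did not share the higher level with FGF2. Its log2 levels were 8.80 and 8.62 in ES, 5.62 and 6.13 in IDE2, 5.70 and 6.54 in IDE2+FGF2, and 6.00 and 6.01 in IDE2+FGF10. The ES arrays stood above all others, and the arrays of the 3 differentiated groups overlapped. The log2 difference between IDE2+FGF2 and IDE2 was 0.24 ± 0.34 (SE, n = 2 per group), and it was -0.18 without IDE2+FGF2 replicate 2. A second, dimmer Pecam1 probe was detected on the 2 ES arrays alone.

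**Figure D1:**
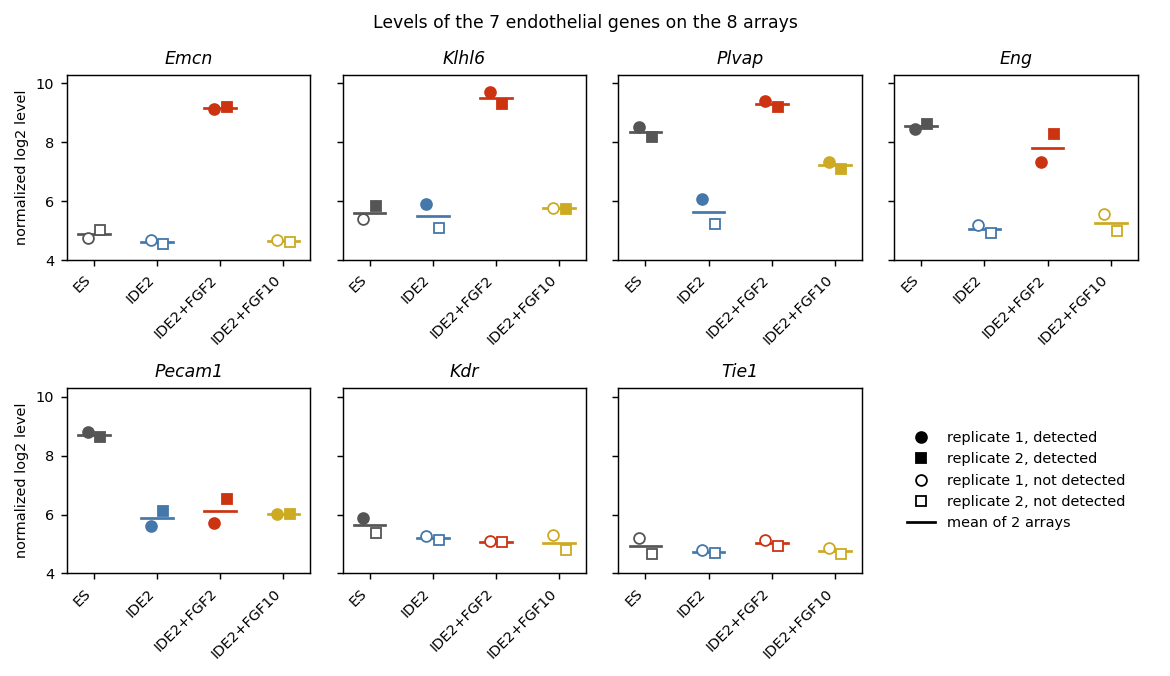
Normalized log2 level (y axis) of each of the 7 genes on every array, by group (x axis), with filled marks for detected and open marks for undetected probes and a line at the mean of 2 arrays. Emcn and Klhl6 are high in IDE2+FGF2 alone, Plvap and Eng are high in IDE2+FGF2 and in ES, Pecam1 is high in ES, and Kdr and Tie1 lie at background.

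Klhl6 had the same profile as Emcn. Its log2 levels were 9.71 and 9.30 in IDE2+FGF2, 5.39 and 5.82 in ES, 5.91 and 5.11 in IDE2, and 5.78 and 5.75 in IDE2+FGF10. The 3 lower groups overlapped and were each detected on 1 of 2 arrays, close to background. Klhl6 was 16.02-fold higher in IDE2+FGF2 than in IDE2, 13.4-fold higher than in IDE2+FGF10 and 14.9-fold higher than in ES, values that rest partly on background. Its 3 probes, all annotated to the same RefSeq transcript, did not respond alike. The log2 difference between IDE2+FGF2 and IDE2 was 4.001 for the probe used and 4.36 for a second probe, but 0.82 for the remaining, dim probe that was detected on the 2 IDE2+FGF2 arrays alone, at raw signals of 156 and 174.

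**Figure D2:**
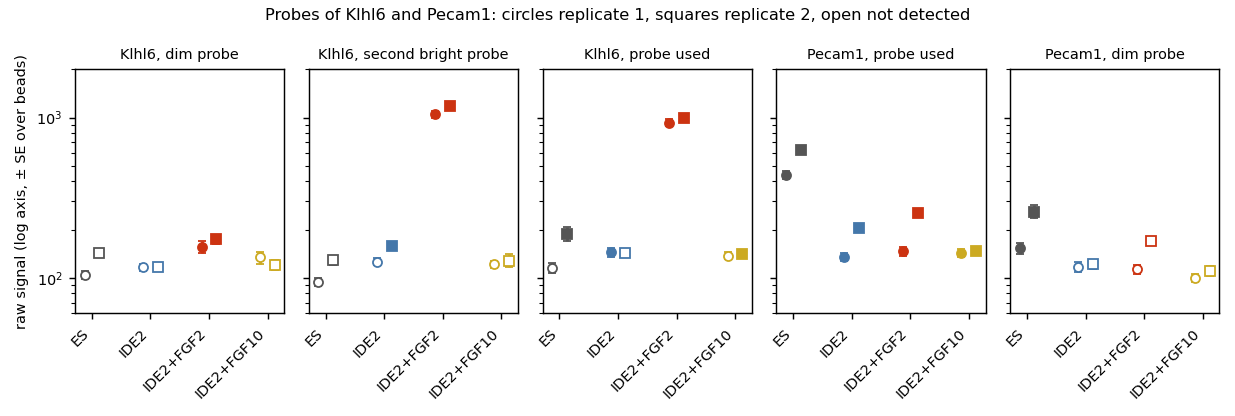
Raw signal on a log axis (y axis, with the standard error over beads) for the 3 probes of Klhl6 and the 2 probes of Pecam1 on every array, by group (x axis). For Klhl6, 2 probes reach 931 to 1174 in IDE2+FGF2 and the dim probe stays at 156 and 174; for Pecam1, the highest signal of either probe is on an ES array.

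The receptor genes Kdr and Tie1 gave no such signal. Raw Kdr signals were 123 and 153 in IDE2+FGF2, 124 and 144 in IDE2, 125 and 109 in IDE2+FGF10, and 128 and 170 in ES, and ES replicate 1 was the only array on which the probe was detected. Raw Tie1 signals ranged from 101 to 145 over the 8 arrays and were detected on none. Each gene had a single probe. At this signal over background a difference in either gene was not detectable, which does not show that the transcripts were absent.

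Over the 5 genes that passed the filter, the median log2 difference between IDE2+FGF2 and IDE2 was 3.65, against 0.02 for all genes. The 2 arrays of each group did not overlap for 4 of them, all higher in IDE2+FGF2, where this held for 24% of all genes tested. Against IDE2+FGF10 it was also 4 of 5, all higher, with 30.2% of all genes. Against ES, Emcn, Klhl6 and Plvap were higher (34.8% of all genes) and Eng and Pecam1 lower (35.2%). Both IDE2+FGF2 arrays exceeded the other 6 arrays for Emcn, Klhl6 and Plvap, and for 5.16% of all genes. Since the genes were picked for their level with FGF2, nothing is read from these counts.

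**Figure D3:**
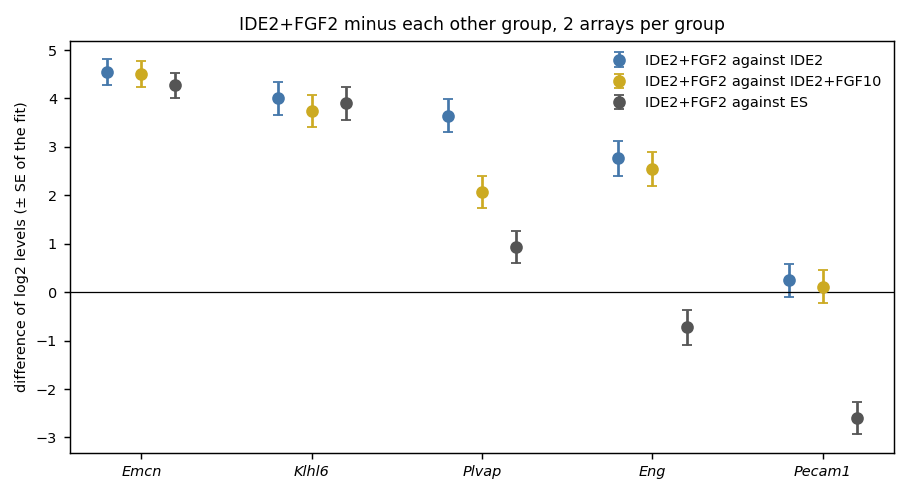
Difference of log2 levels (y axis, IDE2+FGF2 minus each other group, with the standard error of the fit) for the 5 genes that passed the detection filter (x axis). Emcn and Klhl6 lie between 3.75 and 4.54 in all 3 comparisons, while Eng and Pecam1 lie below 0 against ES; differences against undetected groups are as fitted, not bounds.

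Between IDE2+FGF10 and ES the values are also a description, because the genes were chosen with the levels of all 4 groups in view. Eng was at least 6.87-fold lower in IDE2+FGF10 than in ES, and its IDE2+FGF10 arrays were below background. Pecam1 was 6.53-fold lower (log2 difference -2.71 ± 0.34, SE, n = 2 per group), and Plvap was 2.20-fold lower (-1.14 ± 0.33). The arrays of the groups did not overlap for these 3 genes. Emcn was below background in both groups, and Klhl6 differed by 0.16 ± 0.34 on the log2 scale with overlapping arrays. Over all genes, limma called 22.8% lower and 22.2% higher in this comparison, and nothing is read from the genes' differences against these shares.

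The changes from ES to IDE2 are likewise given without a test. Eng was at least 8.67-fold lower in IDE2, where it was detected on no array. The log2 difference was -2.84 for Pecam1 and -2.71 for Plvap, the latter partly against background, while Emcn was undetected in both groups and Klhl6 differed by -0.10. Between IDE2+FGF10 and IDE2, Plvap differed by 1.58 ± 0.33 and the other 4 genes by 0.03 to 0.26, Emcn and Eng being undetected in both groups. In the FGF10 cultures, then, Plvap was the one of these 5 genes whose arrays did not overlap with those of IDE2, as for 34.5% of all genes in that direction. All these comparisons share arrays with the IDE2+FGF2 comparisons and are not independent of them.

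Other genes of the endothelium were taken from 4 lists of 68 genes, written from general knowledge and without the 7 genes above. The lists were written with earlier results of these data known, so the shares and p-values below are not an independent test. Of these, 66 had a probe, 44 passed the filter and 19 were detected on no array. Defining endothelial genes were among the undetected. Cdh5, which encodes VE-cadherin, had raw signals of 99.4 to 158 with a lowest detection p of 0.132, and Cd34, Icam2 and the transcription factor genes Tal1, Fli1 and Erg were likewise detected on 0 of 8 arrays. The data thus do not show the full set of endothelial markers in any group.

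Among the 44 tested genes, 8 rose and 1 fell in IDE2+FGF2 relative to IDE2 by limma (18.2% and 2.27%), while 3.7% of all genes rose and 3.8% fell. The risers were Lmo2, Robo4, Esm1, Esam, Mmrn2, Hhex, Sox18 and Cd93, and Nr2f2 fell. Esm1, Cd93 and Sox18 passed the detection filter only through the IDE2+FGF2 arrays in which they were high, so their place among the 44 was tied to their rise, and 5 of the 8 risers would have passed without those arrays. With no detection filter, 7 of the 66 genes with a probe rose, and 1.54% of all genes. The median log2 difference of the 44 genes was 0.19, against 0.02 for all genes, and it was 0.14 when undetected groups were set to their background bounds. Without IDE2+FGF2 replicate 2, 5 of the 8 (Esam, Esm1, Hhex, Lmo2 and Robo4) remained called.

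Lmo2, a LIM-domain adaptor of blood and endothelial transcription complexes, had the largest rise. Its log2 levels were 10.28 and 9.73 in IDE2+FGF2, 7.12 and 6.88 in IDE2, 7.22 and 7.17 in IDE2+FGF10, and 6.22 and 6.40 in ES. The FGF2 arrays stood above all others, and the change from IDE2 was 8.03-fold (log2 change 3.01 ± 0.29, SE, n = 2 per group, limma adjusted p = 0.00034). Lmo2 also rose 7.03-fold against IDE2+FGF10 (limma adjusted p = 8e-04) and 13.0-fold against ES (1.1e-05). Of the other transcription factor genes, Hhex rose 3.65-fold over IDE2 (limma adjusted p = 0.0033) to a level near that in ES. Sox18 rose at least 2.27-fold (0.028), a call that ended in 8 of 17 alternatives, including without either array of IDE2 or of IDE2+FGF2. Sox18 was tested only because its IDE2+FGF2 arrays passed the filter, so its p-value is no separate support for a rise. Nr2f2, the gene of the venous factor COUP-TFII, fell 3.91-fold (0.0083), a call lost without IDE2 replicate 2 (0.079).

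Surface and matrix genes gave 5 of the 8 rises, from 16 tested. Robo4, an endothelial roundabout receptor, had log2 levels of 8.75 and 8.58 in IDE2+FGF2, 5.68 and 5.98 in IDE2, 5.96 and 6.27 in IDE2+FGF10, and 10.68 and 10.86 in ES. It rose 7.15-fold over IDE2 (limma adjusted p = 0.00034) and, like Esam, was highest in ES. Esam, a junctional adhesion molecule, rose 4.44-fold over IDE2 (0.002) and was 4.26-fold lower than in ES (limma adjusted p = 0.00029). Esm1, which encodes the secreted proteoglycan endocan, behaved like Emcn: it was detected on both IDE2+FGF2 arrays, at raw signals of 310 and 258, and on no other array. It rose at least 3.35-fold over IDE2 (limma adjusted p = 0.0027), where its levels were below background. Esm1 and Cd93 were tested only because their IDE2+FGF2 arrays passed the filter, so their p-values are no separate support for a rise. The matrix gene Mmrn2 rose 4.31-fold (0.0072), partly against background, and the lectin receptor gene Cd93 at least 1.87-fold (0.025). The Mmrn2 call ended without IDE2+FGF2 replicate 2 (limma adjusted p up to 0.068 over 18 alternatives), and that of Cd93 in 10 of 17 alternatives (up to 0.12).

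**Figure D4:**
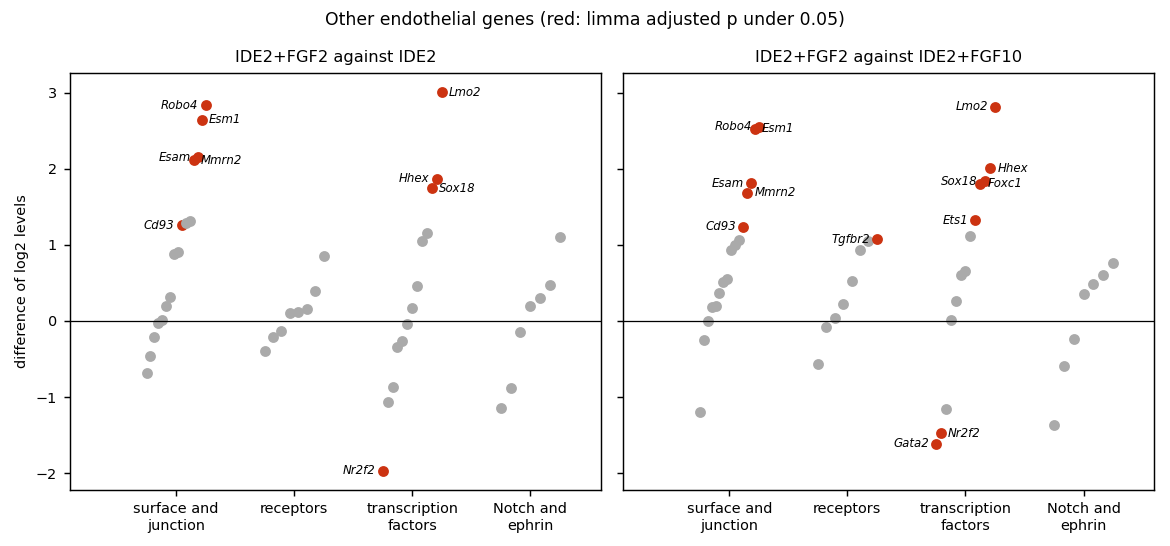
Difference of log2 levels (y axis) of the 44 tested endothelial genes outside the 7, by list (x axis), for IDE2+FGF2 minus IDE2 (left) and IDE2+FGF2 minus IDE2+FGF10 (right). Red points passed limma's test with an adjusted p under 0.05: 8 higher and 1 lower on the left, 11 higher and 2 lower on the right.

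Of 8 tested receptors of VEGF, angiopoietin and BMP9, 0 passed in either direction against IDE2 by limma, and 0 had an unadjusted p under 0.05. A count of 0 among 8 is near the share over all genes (3.7% higher and 3.8% lower) and is no result about the receptors. Flt1, the gene of VEGF receptor 1, was below background in ES and reached log2 levels of 9.58 and 9.49 in IDE2, 9.58 and 9.23 in IDE2+FGF2, and 9.23 and 9.14 in IDE2+FGF10. It rose at least 13.6-fold from ES to IDE2+FGF2 (limma adjusted p = 7.2e-06) and differed from IDE2 by -0.13 ± 0.29 on the log2 scale (limma adjusted p = 0.81). Flt4 (VEGF receptor 3) had the smallest p of this list against IDE2, with a log2 difference of 0.85 ± 0.46 (limma adjusted p = 0.26). The difference was 1.60 without IDE2+FGF2 replicate 1. Flt4 was undetected on that array (detection p 0.461) and on both IDE2 arrays (0.731 and 0.579). Its difference thus rests on IDE2+FGF2 replicate 2 (log2 level 6.30) against background. Tek, the angiopoietin receptor gene and partner of Tie1, differed by -0.39 ± 0.37 (0.53) and was highest in ES, at log2 levels of 7.12 and 7.04. Its fall from ES to IDE2+FGF2 (2.63-fold, limma adjusted p = 0.014) ended without either ES array or without IDE2+FGF2 replicate 1 (up to 0.11). Etv2 had log2 levels of 8.05 and 7.41 in IDE2+FGF2, 7.34 and 5.82 in IDE2, and 8.46 and 8.90 in ES, and its difference from IDE2 did not pass (1.15 ± 0.45, 0.14) but did so without IDE2 replicate 1 (limma adjusted p = 0.012). Of 7 Notch and ephrin genes 0 passed by limma, with 3 at an unadjusted p under 0.05, and the smallest p was that of the Notch ligand gene Jag2 (log2 difference 1.10 ± 0.31, 0.056).

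Relative to IDE2+FGF10, 11 of the 44 genes were higher in IDE2+FGF2 and 2 lower by limma (25% and 4.55%), with 4.71% and 2.6% of all genes. Among the 11 were Esm1, Cd93 and Sox18, which passed the detection filter only through the IDE2+FGF2 arrays. With no detection filter, 9 of the 66 genes with a probe were higher, and 2.22% of all genes. The 8 risers named above were all among the 11, with Ets1 (2.50-fold, limma adjusted p = 0.038), Foxc1 (3.49-fold, 0.0095) and the receptor gene Tgfbr2 (2.10-fold, 0.049). The Tgfbr2 call ended in 9 of 18 alternatives, the replicate block among them (limma adjusted p = 0.065), that of Ets1 in 7 (up to 0.23) and that of Foxc1 in 3 (up to 0.12). Gata2 was 3.06-fold lower (limma adjusted p = 0.0085, lost without either IDE2+FGF10 array). Nr2f2 was 2.77-fold lower (limma adjusted p = 0.028), partly against background, a call that ended in 10 of 18 alternatives. A second Nr2f2 probe differed by -0.47 on the log2 scale, against -1.47 for the probe used. These counts share the IDE2+FGF2 arrays with those against IDE2 and are not a second observation of the rise. Without IDE2+FGF10 replicates 1 and 2 in turn the 11 became 5 and 4, and without IDE2+FGF2 replicate 2 they became 5. Scaling by array medians shifted the median over all genes by 0.27, and the calls over all genes then split into 1237 higher and 136 lower in place of 467 and 258.

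Relative to ES, 18 of the 44 genes rose and 6 fell in IDE2+FGF2 by limma (40.9% and 13.6%), with 17.8% and 16.8% of all genes. The 18 also include Esm1, Cd93 and Sox18, and with no detection filter 17 of the 66 genes with a probe rose, and 10.1% of all genes. The receptor co-factor Nrp1 rose 2.94-fold (limma adjusted p = 0.0033), and Tgfbr2, Flt1, Lmo2, Esm1 and Cd93 also rose. Robo4, Esam, Tek, Sox7, Nos3 and Rasip1 fell, the Nos3 call ending without either ES array or without IDE2+FGF2 replicate 1 (limma adjusted p up to 0.096). Esm1, like Emcn, was undetected in ES, and Lmo2 was lowest there, while Robo4 and Esam, like Pecam1 and Eng, were highest in ES. From ES to IDE2, 17 of the 44 rose and 13 fell by limma (38.6% and 29.5%), with 23.1% and 22.2% of all genes. From ES to IDE2+FGF10, 15 rose and 12 fell (34.1% and 27.3%), with 22.2% and 22.8% of all genes. Arap3, Cav1, Ets1, Flt1, Foxc1 and Tgfbr2 were among those that rose in all 3 comparisons. The rises from ES were thus largely shared with the cultures without FGF2.

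Among the ligands of these receptors, Angpt2, the gene of the TEK ligand angiopoietin 2, rose 2.83-fold over IDE2 (limma adjusted p = 0.024) and 4.53-fold over ES (0.00058). Vegfb rose 2.75-fold over IDE2 (0.044), and the other 7 of 9 tested did not pass. The Angpt2 call ended in 5 of 18 alternatives (limma adjusted p up to 0.13) and that of Vegfb in 10 of 18 (up to 0.25), among them without IDE2 replicate 2 and without IDE2+FGF2 replicate 2. Of 7 tested genes of the mural cell list, Pdgfb, which encodes a growth factor that endothelial cells release to recruit mural cells, rose 4.80-fold (limma adjusted p = 0.007). This call ended without IDE2 replicate 2 or IDE2+FGF2 replicate 2 (up to 0.087), and a second, dim Pdgfb probe differed by 0.10 on the log2 scale.

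Genes of other cell types moved with the same arrays. Of 10 ES cell markers, 5 rose in IDE2+FGF2 relative to IDE2 by limma (50%) and 0 fell, while 3.7% of all genes rose and 3.8% fell. Among the 5 were Utf1 (13.5-fold, limma adjusted p = 0.00034), Pou5f1 (5.09-fold, 0.0079), Klf2 (3.37-fold, 0.019) and Klf4 (2.55-fold, 0.036). The calls of Pou5f1 and Klf2 ended without IDE2 replicate 2 or IDE2+FGF2 replicate 2, and that of Klf4 in 12 of 18 alternatives. The other Klf4 probes differed by 0.14 and 0.31 on the log2 scale, against 1.35 for the probe used. Relative to IDE2+FGF10, 6 of the 10 markers were higher by limma (60%) and 0 lower, with 4.71% and 2.6% of all genes. They were Klf2, Klf4, Nanog, Pou5f1, Utf1 and Zfp42. In that comparison the calls of Utf1, Pou5f1, Klf2 and Klf4 held in 15, 15, 14 and 4 of 18 alternatives. The summed normalized intensity of the 10 ES markers was 136000 to 149000 in ES, 22300 to 45900 in IDE2, 70200 to 72200 in IDE2+FGF2 and 42000 to 42200 in IDE2+FGF10. Dppa5a was the brightest marker on every array and weighed most in these sums. Its log2 levels were 15.96 and 15.91 in ES and 15.86 and 15.74 in IDE2+FGF2. By limma, 8 of the 10 markers fell from ES to IDE2+FGF2 (16.8% of all genes), Dppa5a not among them. The sums are thus no measure of the share of ES cells. Eng, Robo4, Esam, Mmrn2 and Hhex had the same order of ES, IDE2+FGF2 and IDE2 as these sums, and Plvap was also well detected in ES but highest in IDE2+FGF2. The part of remaining ES cells in their levels was not tested. For Emcn and Esm1 the ES arrays themselves were below background.

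Defining blood and leukocyte markers were among the undetected genes. Of 15 blood and erythroid genes with a probe, 9 were detected on no array, Gata1 and the embryonic globin gene Hbb-bh1 among them, and 0 of 5 tested passed by limma in either direction against IDE2, with 1 at an unadjusted p under 0.05, Itga2b (log2 difference 0.76 ± 0.32, unadjusted p = 0.038, limma adjusted p = 0.16). Of 12 leukocyte genes with a probe, 4 were detected on no array, among them Ptprc (CD45). Of 6 tested, 1 rose, with 3.7% of all genes, and a single gene is no result about the list. It was Laptm5 (2.24-fold, limma adjusted p = 0.033). That call ended in 8 of 18 alternatives, and Laptm5 was highest in ES. The summed intensity of the leukocyte list was 2130 to 2690 in IDE2+FGF2, 1620 to 1800 in IDE2+FGF10, 1160 in IDE2 and 12600 to 12700 in ES. Laptm5 alone made up most of this sum in every group, at log2 levels of 13.55 on both ES arrays and 11.25 and 10.79 in IDE2+FGF2. The sum therefore describes Laptm5 and not the list. The summed intensity of the mural list was 3450 to 5860 in IDE2+FGF2, 1430 to 1680 in IDE2 and 2110 to 2210 in IDE2+FGF10. This sum includes Pdgfb, at log2 levels of 10.51 and 11.52 in IDE2+FGF2 and 8.84 and 8.66 in IDE2. Notch3 was high on 1 IDE2+FGF2 array only (log2 levels 8.35 and 10.55). The 6 tested genes of the list other than Pdgfb were not called against IDE2. All 7 tested genes had a positive log2 difference from IDE2, with a median of 0.96 (0.02 for all genes). On simulated arrays 11% of log2 changes of 1 were recovered, so these non-calls do not show that mural transcripts were unchanged. The sum, weighted by Pdgfb and by Notch3 on 1 array, does not settle this. What these cell types contribute to the levels of the 7 genes was not tested.

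Across the 8 arrays, which share their 4 groups, Emcn and Klhl6 followed each other closely (Pearson's r = 0.989), and Plvap correlated with Eng (0.822), Emcn (0.728) and Klhl6 (0.722). Pecam1 correlated with Eng (0.741) and less with Plvap (0.343), Emcn (-0.22) and Klhl6 (-0.29). The mean of the standardised levels of the 5 genes was 0.83 and 1.01 on the IDE2+FGF2 arrays, 0.43 and 0.45 in ES, -0.48 and -0.59 in IDE2+FGF10, and -0.74 and -0.91 in IDE2. The genes most like this mean were Vwa2 (r = 0.985), Pdk4 (0.978), Crym (0.969), Dgkz (0.963), Xpo7 (0.963), Lrrc8a (0.961), Parp1 (0.961), Mcam (0.958), Car7 (0.953) and Cygb (0.95), and 56 of 9727 genes exceeded 0.9. Car7 and Cygb lay near background, with group means of 5.19 to 5.78 and 4.79 to 6.34, so their r rests partly on background. Mcam encodes CD146, an adhesion molecule of endothelial and mural cells, and its mean log2 level was 10.9 in IDE2+FGF2, 10.0 in ES, 8.16 in IDE2 and 8.01 in IDE2+FGF10. Mcam was picked out of the 10 for its known cell types and says nothing about the 10 as a set.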

How the data were processed

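Total RNA was extracted with Trizol, treated with DNase, labelled with the Ambion MessageAmp kit and hybridised to Illumina BeadChips. The main deposited table holds linear, non-normalized signal intensity per probe and array, per the file headers, and the submitters' processing notes name BeadStudio. It also holds a detection p-value from background probes and, as deposited, the bead number and bead standard error. A second deposited table of intensity values is quantile normalized, judging by its values; the method is not given in the sources used here, and it served as an alternative.

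Normalized log2 levels came from the neqc function of limma (version 3.58.1, under R 4.3.3), which corrects background by normexp, adds an offset of 16 and quantile normalizes. Gene names came from the platform annotation (23978 of 25697 probes named). Kept were probes with a detection p under 0.05 on 2 or more arrays, and each gene was represented by its brightest probe. All 8 arrays entered a single limma fit of the 4 group means, with moderated t tests and Benjamini-Hochberg adjustment over 9915 genes. Genes with an adjusted p under 0.05 are said to rise or fall. Where a probe was detected on no array of a group, the fold is a lower bound against the background level of that group. On simulated arrays for IDE2+FGF2 against IDE2 (9915 genes), 98% of log2 changes of 2 and 11% of log2 changes of 1 were recovered. Replicates of these groups spread more widely (pooled SD 0.454 for IDE2+FGF2, 0.496 for IDE2) than the others (0.241 for IDE2+FGF10, 0.247 for ES). The fit uses a common error per gene for all groups, so these recovered shares may be too high for this comparison.

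The 7 genes, the gene lists and the naming rule were chosen with earlier results of these data known, so no test is given for the 7 genes; a test of them between IDE2+FGF10 and ES had been planned and is not used. Named were the 7 genes, up to 4 called genes of each list by size of the IDE2+FGF2 difference from IDE2 (or the gene with the smallest p), Cdh5, Tek, Flt1, Etv2, Tal1 and Hbb-bh1, and the 10 genes most like the members' mean; other names were added after their values were seen. Same-numbered arrays did not deviate together (correlations of deviations from the group means -0.07 to 0.01), so the replicate numbers were not treated as pairs.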

Additional observations from a re-analysis of the deposited data

How the results depend on the processing

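All differences of Emcn, Klhl6, Plvap and Eng between IDE2+FGF2 and IDE2 or IDE2+FGF10 kept their direction in the alternatives run. Without background correction they were smaller (Emcn against IDE2 2.72 in place of 4.54, Klhl6 2.52 in place of 4.001), and the authors' processed values gave nearly the same. The strict detection filter drops Emcn and Klhl6. Of 528 differences of the 5 genes over comparisons and alternatives, 511 kept their direction. Many alternatives cannot move a difference of 2 group means, such as the replicate block or leaving out an array of another group. The count is therefore no measure of stability. The count of other endothelial genes higher than in IDE2 (8) was 5 with the strict filter, 5 with the second arrays of IDE2 and of IDE2+FGF2 both left out (chosen after seeing the data), and 5 to 11 leaving out single arrays. The count lower (1) was 2 with the mean over probes, 0 with both second arrays left out, and 0 to 2 leaving out single arrays. Against IDE2+FGF10, the 11 higher and 2 lower genes became 7 and 1 with only the arrays of the 2 groups, 19 and 4 with both second arrays left out, and 4 to 12 and 0 to 4 leaving out single arrays. Over all genes, 744 were called against IDE2, 489 with no filter, 254 with only the 2 groups, 169 with both second arrays left out, and 102 to 2422 leaving out single arrays. Against IDE2+FGF10 725 were called, 1373 with median scaling, 382 with only the 2 groups, 2061 with both second arrays left out, and 68 to 1484 leaving out single arrays. Against ES 3423 were called in IDE2+FGF2, 5213 with both second arrays left out, and 1819 to 4150 leaving out single arrays; in IDE2+FGF10 4471, and 2883 to 5155. The lone array left in a group is assumed to vary like the other groups. The causes were not tested. Median scaling moved the share of calls that were higher from 49.3 to 62.3% against IDE2, from 64.4 to 90.1% against IDE2+FGF10, and from 49.3 to 35.5% for IDE2+FGF10 against ES. With the replicate number as a block, 8 other endothelial genes were higher than in IDE2 and 10 higher than in IDE2+FGF10, over all genes 638 and 665 were called; among the named genes the block ended the calls of Vegfb against IDE2 and of Klf4 and Tgfbr2 against IDE2+FGF10. Signals near background limit Kdr, Tie1 and the lower groups of Emcn and Klhl6, and the 2 arrays per group limit every error.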
